A study of Danio rerio with 8 samples.

Results

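The genes described here encode the ATP-binding cassette (ABC) proteins and the P4-type ATPases, or lipid flippases, of the zebrafish larval liver. They were picked by gene symbol, under a rule set with earlier results of these data known. ABC symbols begin with abc, a subfamily letter from a to g and a digit. Flippase symbols begin with atp8, atp9, atp10 or atp11 followed by a or b. Each had at least 1 count over the 8 libraries, and 62 genes met the rule among 22656 gene names with a count, 51 of them ABC genes and 11 P4 flippase genes. The RNA came from livers of larvae 7 days old, each library from a pool of 10, with 4 pools from the lf:YAP line, in which YAP is hyperactivated in hepatocytes, and 4 pools from WT larvae, all raised in plates without treatment. The sources used here give neither the promoter behind the lf:YAP transgene nor whether the pools came from separate clutches. The p-values therefore cover the spread among the pools, and that spread may be technical.

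Most ABC proteins use ATP to move lipids, sterols, conjugates or foreign compounds out of the cell or into an organelle, although subfamilies E and F are soluble proteins that act on ribosomes. P4 flippases move phospholipids the other way, to the cytosolic leaflet, and most need a CDC50 (tmem30) subunit to leave the endoplasmic reticulum. In hepatocytes a small set of ABC exporters sits in the canalicular membrane, where it secretes bile salts, phospholipid, cholesterol and conjugates into bile. Inherited loss of several of these proteins, and of the flippase ATP8B1, causes cholestasis in humans.

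Counts on named genes came to 2668432 to 3170508 per library in lf:YAP and 2853543 to 3797709 in WT. Levels are CPM, counts scaled to library size, here with TMM factors, and a gene was called changed where the edgeR quasi-likelihood test gave a Benjamini-Hochberg adjusted p under 0.05 over all genes tested. Log2 changes are lf:YAP over WT. Gene lengths were not used, so levels are compared between groups and not between genes. The yap1 row stood at 639, 1025, 303 and 1320.2 CPM in lf:YAP replicates 1 to 4, against 16.9 to 23.9 CPM in WT. The 14 hepatocyte markers summed to 21895 to 33736 CPM in lf:YAP and 25613 to 27413 CPM in WT, and none of them was at 0. The sum covers members that went opposite ways: 2 of the 14 rose, 4 fell and 8 did not pass, with fabp10a at 7991 CPM in lf:YAP and 2731 CPM in WT, and apoa2 at 1690 and 3603 CPM (means, n = 4 each). The 14 exocrine pancreas markers summed to 2666 to 14403 CPM in lf:YAP and 2584 to 10794 CPM in WT, highest within each group in lf:YAP replicate 3 and WT replicate 4. The same 2 libraries were highest for the 11 intestine markers in the table (295 to 870.2 CPM in lf:YAP and 448 to 1427 CPM in WT) and the 13 skeletal muscle markers (172 to 887 CPM in lf:YAP and 707 to 1522 CPM in WT). Of the 13 muscle markers 2 rose, 4 fell and 7 did not pass, and of 9 intestine markers tested 4 fell and 5 did not pass.

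In lf:YAP livers 6 of the genes were called changed, a share near that of all genes tested. The ABC genes abcb4, abca12, abca1a, abcg2a and abcc12 fell, and abcb6a, whose family is linked to porphyrin transport, rose. With 1 library left out, abcb4, abca12 and abcb6a kept their calls in all 8 fits. The call of abca1a was kept in 6 of the 8, that of abcc12 in 2 and that of abcg2a in 1. Of the 62 genes, 28 were abundant enough for the main test, and of these 1 rose, 5 fell and 22 did not pass. Over all 8369 genes tested, 21.6% were called, with 11.1% higher and 10.5% lower, so the share of members called, 21.4%, was near the background. For the main test, fits without 1 library chose their genes anew. Without WT replicate 3, 29 members were tested and 2 called lower, where 7.78% of all genes were called lower. Without lf:YAP replicate 3, 33 were tested, 2 called higher and 7 lower, where 13.6% of all genes were called higher and 14.6% lower. The 7 include abcc6b.1, abcg5 and abcf2b, which were too rare for the test on all 8 libraries, and abcc12 lost its call. The median log2 change of the 28 was -0.16, against 0.013 over all genes tested. The groups did not overlap for 2 higher and 5 lower members, where 12.4% and 11.3% of all tested genes did not overlap in those directions. Members that passed the filter may have done so through 1 group alone, and in bulk tissue fewer cells of a type and less RNA per cell cannot be told apart.

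**Figure D1:**
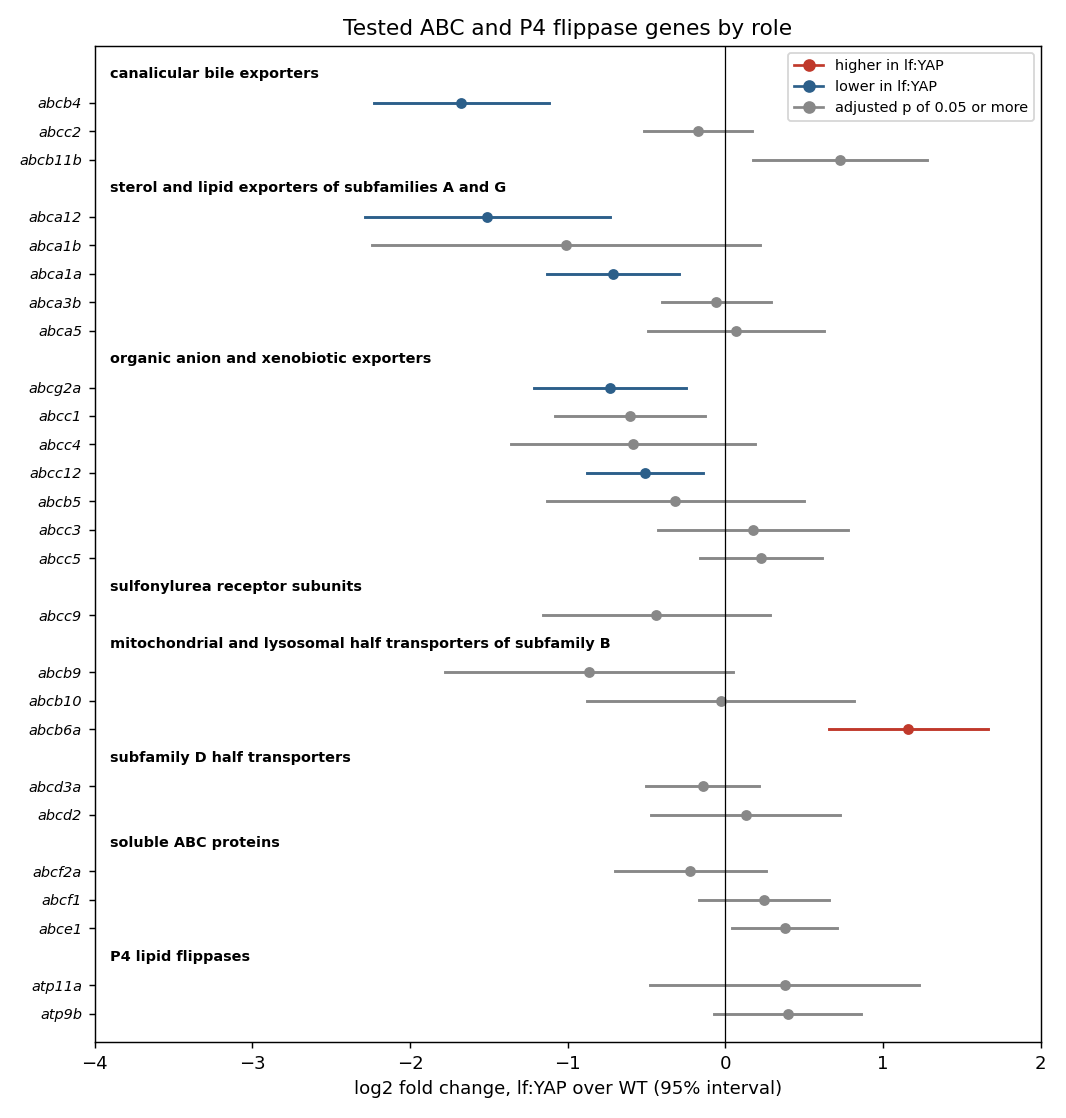
Log2 change, lf:YAP over WT (x axis), with its unadjusted 95% interval for 26 of the 28 tested members, grouped by role and ordered by size within a group. Red marks the 1 gene called higher, blue the 5 called lower and grey 20 that did not pass; abcb4 has the lowest estimate, at -1.68, and abcb6a the highest, at 1.161.

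Among the canalicular bile exporters abcb4 fell. In mammals ABCB4 moves phosphatidylcholine into bile, whereas the zebrafish protein of that name is known as an efflux pump for foreign compounds. The abcb4 level was 42.1, 35.0, 59.4 and 21.3 CPM in lf:YAP livers, against 124, 116, 114 and 145 CPM in WT livers, for replicates 1 to 4. Every lf:YAP library was below every WT library, with the highest lf:YAP value in replicate 3 and the lowest in replicate 4. The group levels were 39.5 ± 15.9 CPM in lf:YAP and 125 ± 14.3 CPM in WT (SD, n = 4 each), a 3.20-fold decrease, with a log2 change of -1.68 ± 0.26 (SE) and an adjusted p of 0.000783 by edgeR. The value ran from -1.94 to -1.46 with 1 library left out. It was -1.87 without lf:YAP replicate 3 and WT replicate 4 together, a setting chosen after seeing the data. In the libraries left, intestine and muscle sums still stood higher in WT, so that fit cannot test their part.

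The bile salt export pump gene abcb11b was higher in 3 of the 4 lf:YAP libraries and did not pass the test. Its product secretes bile salts across the canalicular membrane. The level was 1319.7, 1649.9, 746 and 1743 CPM in lf:YAP livers, against 1051, 830.5, 751 and 672 CPM in WT livers. Replicates 1, 2 and 4 of lf:YAP stood above all WT libraries, and lf:YAP replicate 3 lay below 3 of the 4 WT libraries. The group levels were 1365 ± 451 CPM in lf:YAP and 826 ± 163 CPM in WT (SD, n = 4 each), with a log2 change of 0.72 ± 0.26 (SE, adjusted p = 0.0595 by edgeR). Without lf:YAP replicate 3 it was 0.92 with an adjusted p of 0.00205; without any other single library the adjusted p was 0.0614 to 0.154. That library also had the lowest yap1 level of the lf:YAP libraries and the most pancreas transcripts, and the part of either in the result was not tested. Across the 4 lf:YAP libraries abcb11b stood in the same order as yap1 and abcb4 in the reverse order, which is a description of 4 points. The order of abcb4 depends on the TMM factors. It had 116 of 2668432 counts in lf:YAP replicate 1 and 136 of 3069996 in replicate 2, so without these factors replicate 2 is slightly higher. The abcb11b row held 31.4% to 55.8% of all member counts in lf:YAP libraries and 24.8% to 37.1% in WT libraries.

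The conjugate exporter gene abcc2 showed no detectable difference. Its product, MRP2, carries bilirubin glucuronides and other conjugates into bile. The level was 249.6, 289, 299 and 323 CPM in lf:YAP livers, against 364, 312, 340.4 and 294 CPM in WT livers. The groups overlapped, with means of 290.3 ± 30.8 CPM in lf:YAP and 328 ± 30.8 CPM in WT (SD, n = 4 each). The log2 change was -0.17 ± 0.16 (SE, adjusted p = 0.475 by edgeR), with a 95% interval from -0.52 to 0.17, and under scaling by total counts alone it was 0.14.

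The other 3 canalicular exporters, abcb11a, abcg5 and abcg8, were too rare for the main test and were fitted with a looser filter, 1 CPM or more in 4 or more libraries. That fit called 8.51% of its 12875 genes higher and 7.93% lower. Within it 5.42% of the 4506 genes added by the looser filter were called lower and 3.77% higher. The gene abcg5, whose product pairs with that of abcg8 to move sterols into bile and the gut lumen, had 1, 2, 6 and 1 counts in lf:YAP livers, against 7, 14, 12 and 33 in WT livers. These counts correspond to 0.363, 0.515, 2.58 and 0.250 CPM in lf:YAP livers, against 2.704, 5.41, 4.94 and 9.17 CPM in WT livers. Every WT library stood above every lf:YAP library, by a small margin between WT replicate 1 and lf:YAP replicate 3. The gene passed the looser filter through its WT level, which favours a lower call. The log2 change was -2.74 ± 0.59 (SE), with an adjusted p of 0.00587 by edgeR. Leaving out 1 library gave -3.75 to -2.35, with an adjusted p of at most 0.0279. Those fits kept the gene set chosen on all libraries and did not retest the filter.

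Its partner gene abcg8 had 4, 7, 7 and 4 counts in lf:YAP livers, against 6, 4, 13 and 23 in WT livers. The groups overlapped, and the log2 change of -1.156 ± 0.50 (SE) had an adjusted p of 0.135 by edgeR. The second bile salt pump gene, abcb11a, had 4, 2, 6 and 7 counts in lf:YAP livers, against 3, 3, 11 and 27 in WT livers, with a log2 change of -1.27 ± 0.63 (SE, adjusted p = 0.191 by edgeR). Of its 44 WT counts, 27 were in WT replicate 4, and without that library the log2 change was -0.55. All 3 rare exporters were highest within WT in replicate 4, and within lf:YAP abcg5, abcg8 and abcb11a were at their highest CPM in replicate 3. These are the libraries with the highest pancreas, intestine and muscle sums, and their part in the differences was not tested. Without both libraries, abcg5 stood at -3.37 (adjusted p = 0.00128 by edgeR). In the libraries left, intestine sums were 295 to 398 CPM in lf:YAP and 448 to 761 CPM in WT. Muscle sums were 172 to 522 CPM in lf:YAP and 707 to 1290 CPM in WT, and pancreas sums overlapped. Intestine and muscle still stood higher in WT, so that fit cannot test their part.

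**Figure D2:**
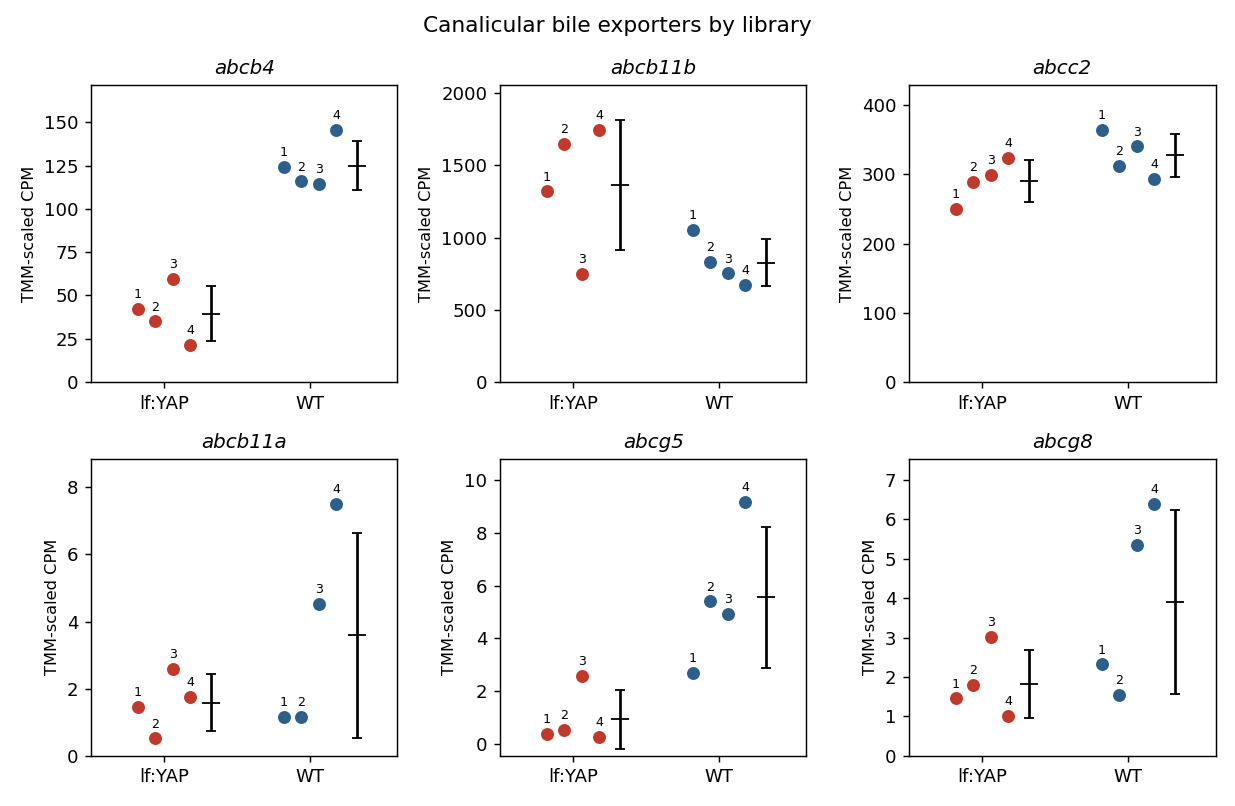
TMM-scaled CPM (y axis) of the 6 canalicular exporters in each lf:YAP and WT library, with points numbered by replicate and bars for the mean ± SD of 4 libraries. The groups are apart for abcb4 and abcg5, and lf:YAP replicate 3 is the lowest lf:YAP point for abcb11b and the highest for abcb4 and abcg5.

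Ratios within a library, which need no scaling between libraries, were examined for 3 pairs. The log2 ratio of abcg5 to abcg8 counts (0.5 added to each) was -1.58, -1.58, -0.21 and -1.58 in lf:YAP livers, against 0.21, 1.69, -0.11 and 0.51 in WT livers. The groups did not overlap, and the mean was -1.24 ± 0.69 in lf:YAP and 0.57 ± 0.79 in WT (SD, n = 4 each), a difference of -1.81. The 2-sided exact permutation p was 0.0286, the smallest that 4 against 4 allows, and 0.0857 adjusted over the 3 pairs, which did not pass. With 3 pairs, a pair alone at that smallest p could not have passed, so the correction decides nothing here. With 1 to 33 counts behind each value of abcg5, counting error is large. The log2 ratio of abcb11b to abcb11a differed by 1.57 (lf:YAP minus WT; exact permutation p = 0.143, adjusted p = 0.214). That of abca1a to abca1b differed by 0.053 (exact permutation p = 0.857, adjusted p = 0.857).

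**Figure D3:**
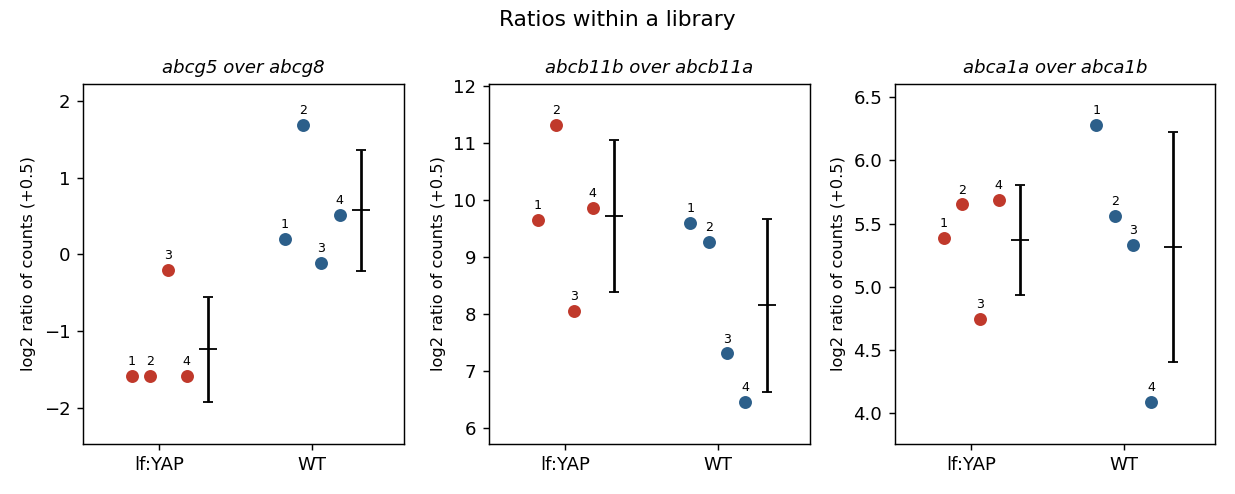
Log2 ratio of counts within each library (y axis) for 3 pairs of genes in lf:YAP and WT, with points numbered by replicate and bars for the mean ± SD of 4 libraries. The abcg5 to abcg8 ratio is below 0 in all 4 lf:YAP libraries, with replicate 3 nearest to WT, and the other pairs overlap.

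Of the 11 genes grouped as sterol and lipid exporters in subfamilies A and G, 5 were tested. Of these abca1a and abca12 fell, where 10.5% of all tested genes were called lower. ABCA1 proteins load cholesterol and phospholipid onto apolipoprotein A-I, the first step in making high-density lipoprotein. The abca1a level was 493, 407, 561 and 445 CPM in lf:YAP livers, against 585, 774, 987 and 781 CPM in WT livers. All lf:YAP libraries were below all WT libraries, with lf:YAP replicate 3 close to WT replicate 1. The group levels were 476 ± 66.3 CPM in lf:YAP and 782 ± 164 CPM in WT (SD, n = 4 each), a log2 change of -0.71 ± 0.19 (SE, adjusted p = 0.0191 by edgeR). The call was lost without lf:YAP replicate 2 (adjusted p = 0.0562), without WT replicate 3 (0.0643) and under scaling by total counts alone (0.0599).

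The paralog abca1b was uneven among WT libraries. Its level was 11.6, 7.98, 20.7 and 8.51 CPM in lf:YAP livers, against 7.34, 16.2, 24.3 and 45.9 CPM in WT livers. WT replicate 4 held 165 of the 285 WT counts, and the log2 change of -1.01 ± 0.54 (SE, adjusted p = 0.222 by edgeR) was -0.44 without that library. Within each group abca1b was highest in lf:YAP replicate 3 and WT replicate 4, the libraries with the highest pancreas, intestine and muscle sums. The part of those tissues was not tested. The abca12 gene, whose mammalian counterpart carries lipids into the lamellar granules of skin cells, had 10.9, 3.09, 9.48 and 3.25 CPM in lf:YAP livers, against 17.4, 17.4, 20.2 and 17.2 CPM in WT livers. The WT libraries lay close together, and lf:YAP replicates 2 and 4 were lower than lf:YAP replicates 1 and 3. The log2 change was -1.51 ± 0.36 (SE, adjusted p = 0.0106 by edgeR), and -1.88 to -1.24 with 1 library left out. The surfactant lipid transporter family gene abca3b (-0.057 ± 0.16) and abca5 (0.065 ± 0.26) did not pass (log2 change ± SE).

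Of the 6 rare genes of this group, abca2 had 21 counts in lf:YAP and 33 in WT. The sterol exporter gene abcg1 had 24 and 13 counts. In the fit with the looser filter neither passed (adjusted p = 0.302 and 0.398 by edgeR). The retinal transporter family genes abca4a and abca4b, and abcg4a and abcg4b, had at most 10 counts in either group.

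Genes grouped as exporters of organic anions and foreign compounds numbered 15, of which 7 were tested. Of these abcg2a and abcc12 fell and none rose, where 10.5% of all tested genes were called lower and 11.1% higher. ABCG2 proteins export urate, porphyrins and many drugs. The abcg2a level was 142, 98.0, 208 and 109 CPM in lf:YAP livers, against 221, 227, 263 and 213 CPM in WT livers. The groups did not overlap, and lf:YAP replicate 3 was just below the lowest WT library. The group levels were 139 ± 49.4 CPM in lf:YAP and 231 ± 22.1 CPM in WT (SD, n = 4 each), a log2 change of -0.73 ± 0.22 (SE, adjusted p = 0.0333 by edgeR). The call was lost without any 1 library other than lf:YAP replicate 3 (adjusted p of 0.0503 to 0.0906), and without lf:YAP replicate 3 the log2 change was -0.99. The paralogs abcg2b, abcg2c and abcg2d had 0, 38 and 1 counts in lf:YAP and 4, 24 and 2 in WT, and reads shared between paralogs may have been split or left out.

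The abcc12 level was 48.7, 42.2, 40.1 and 35.8 CPM in lf:YAP livers, against 68.4, 57.1, 65.9 and 46.4 CPM in WT livers. The groups overlapped only through WT replicate 4, which lay below lf:YAP replicate 1. The log2 change of -0.51 ± 0.17 (SE) had an adjusted p of 0.0479 by edgeR, just under the threshold. The call was lost with DESeq2 (adjusted p = 0.053), with the 1 CPM filter (0.069), without a filter (0.114), with total counts alone (0.488), and without any 1 library but lf:YAP replicate 1 or WT replicate 4 (0.0553 to 0.125).

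The conjugate exporter gene abcc1, which encodes MRP1, had 8.72, 7.46, 6.46 and 6.75 CPM in lf:YAP livers, against 11.6, 8.49, 13.6 and 11.1 CPM in WT livers. The groups overlapped slightly, with a log2 change of -0.60 ± 0.22 (SE, adjusted p = 0.0676 by edgeR), and it passed without WT replicate 2 (adjusted p = 0.0467). The basolateral exporter family genes abcc3 (0.17 ± 0.28) and abcc4 (-0.59 ± 0.36), the cyclic nucleotide exporter family gene abcc5 (0.23 ± 0.18) and abcb5 (-0.32 ± 0.38) did not pass (log2 change ± SE). Within WT, abcc4 was at 15.6 and 15.0 CPM in replicates 3 and 4, and at 5.79 and 7.72 CPM in replicates 1 and 2. Pancreas and intestine sums were also higher in WT replicates 3 and 4 than in 1 and 2, and their part was not tested.

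Among the rare genes of this group abcc6b.1 was called lower in lf:YAP livers. In humans, loss of ABCC6, a liver transporter needed for ATP release, causes ectopic mineralization. The abcc6b.1 row had 1, 1, 0 and 3 counts in lf:YAP livers, against 9, 19, 17 and 28 in WT livers. Every WT library was above every lf:YAP library, and the gene reached 1 CPM in WT libraries alone, so the filter favoured a lower call. The summed counts were 5 in lf:YAP and 73 in WT, a scaled ratio of lf:YAP over WT of 0.0592 with a 95% counting interval from 0.0187 to 0.145. With the 1 CPM filter the log2 change was -3.91 ± 0.53 (SE, adjusted p = 0.000233 by edgeR), and -4.59 to -3.65 with 1 library left out. Those fits kept the gene set chosen on all libraries, so they did not retest the filter that favoured a lower call. The related row abcc6b.2 had 3 counts in lf:YAP and 25 in WT, 14 of them in WT replicate 4. Its scaled ratio was 0.104 with a counting interval from 0.0201 to 0.340, which leaves out the spread between libraries. It did not pass the 1 CPM filter. The row abcc6a had 2 and 9 counts. Reads of such near copies may be divided between the rows. The remaining rare members were abcc10 with 26 and 28 counts in lf:YAP and WT, and abcc13 with 0 and 4.

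**Figure D4:**
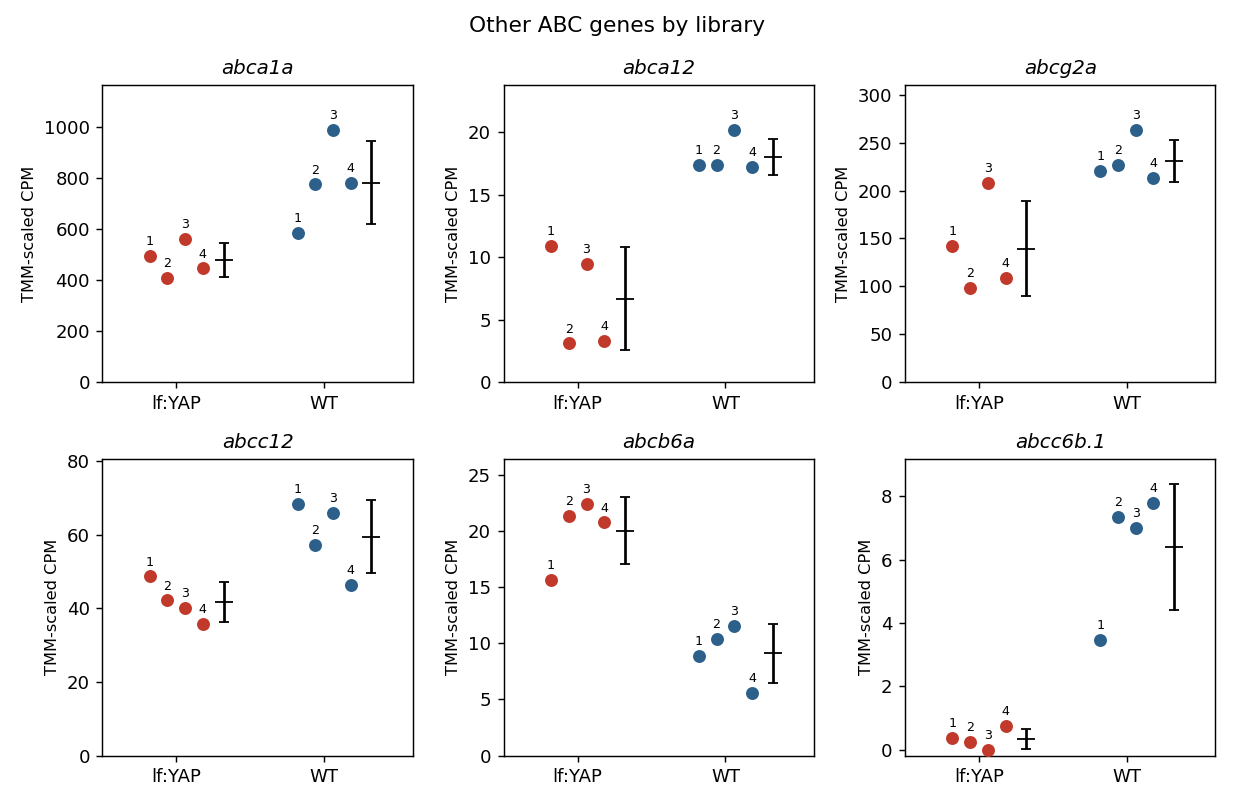
TMM-scaled CPM (y axis) of 6 ABC genes in each lf:YAP and WT library, with points numbered by replicate and bars for the mean ± SD of 4 libraries. The groups are apart for abca1a, abca12, abcg2a, abcb6a and abcc6b.1, with abcb6a alone higher in lf:YAP, and they overlap for abcc12.

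Of the 6 subfamily B genes for transporters of mitochondria and lysosomes, 4 were tested. Of these abcb6a rose, where 11.1% of all tested genes were called higher. ABCB6 proteins are known for porphyrin transport. The abcb6a level was 15.6, 21.4, 22.4 and 20.8 CPM in lf:YAP livers, against 8.88, 10.4, 11.5 and 5.56 CPM in WT livers. All lf:YAP libraries were above all WT libraries, and the group levels were 20.03 ± 3.02 CPM in lf:YAP and 9.10 ± 2.60 CPM in WT (SD, n = 4 each). The 2.24-fold increase, a log2 change of 1.161 ± 0.23 (SE), had an adjusted p of 0.00387 by edgeR and ran from 0.95 to 1.29 with 1 library left out. The heme-related gene abcb10 (-0.030 ± 0.39) and the lysosomal peptide transporter gene abcb9 (-0.87 ± 0.42) did not pass (log2 change ± SE). WT replicate 4 held 38 of the 69 WT counts of abcb9, and without it the log2 change was -0.35. The rare genes abcb6b and abcb8 had 15 and 23 counts in lf:YAP, against 9 and 20 in WT.

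None of the 3 tested subfamily D genes, a subfamily known for peroxisomal fatty acid transport, passed. For abcd3a, whose human counterpart is an abundant peroxisomal membrane protein, the log2 change was -0.14 ± 0.17 (SE) with a 95% interval from -0.50 to 0.22, and for abcd2 it was 0.13 ± 0.28 with an interval from -0.47 to 0.73. The rare abcd3b and the cobalamin transporter family gene abcd4 each had 19 counts in lf:YAP, against 28 and 33 in WT.

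None of the 3 tested genes of soluble ABC proteins passed. The ribosome recycling factor gene abce1 had 58.1, 70.8, 54.7 and 65.0 CPM in lf:YAP livers, against 42.1, 45.2, 52.3 and 52.3 CPM in WT livers. The lf:YAP libraries were above all WT libraries, with a log2 change of 0.38 ± 0.15 (SE, adjusted p = 0.0996 by edgeR), which was 0.70 and passed with total counts alone (adjusted p = 0.0366). The translation-related genes abcf1 (0.25 ± 0.19) and abcf2a (-0.22 ± 0.22) did not pass (log2 change ± SE). The paralog abcf2b had 17 counts in lf:YAP and 42 in WT, with an adjusted p of 0.055 by edgeR under the looser filter, and abcf3 had 44 and 33. Of the sulfonylurea receptor genes, which encode regulators of potassium channels, abcc9 had a log2 change of -0.44 ± 0.33 (SE, adjusted p = 0.381 by edgeR), abcc8 had 11 and 13 counts in lf:YAP and WT, and abcc8b had 1 in each.

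P4 flippase transcripts were sparse in these libraries: 2 of the 11 genes were tested and neither passed. The endosomal family gene atp9b had 10.2, 9.78, 8.18 and 12.01 CPM in lf:YAP livers, against 7.73, 6.56, 9.06 and 7.51 CPM in WT livers. The groups overlapped, with a log2 change of 0.39 ± 0.22 (SE, adjusted p = 0.213 by edgeR). The plasma membrane flippase gene atp11a had 11.3, 14.4, 2.15 and 10.0 CPM in lf:YAP livers, against 7.34, 8.11, 5.76 and 8.62 CPM in WT livers. Only lf:YAP replicate 3, with 5 counts, was below all WT libraries while the other 3 were above them, and the log2 change of 0.38 ± 0.39 (adjusted p = 0.536 by edgeR) was 0.66 without that library (adjusted p = 0.0546).

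The flippase gene atp8b1, the counterpart of the human cholestasis gene, had 4, 2, 3 and 2 counts in lf:YAP livers, against 3, 16, 12 and 10 in WT livers. The lf:YAP counts were 2 to 4, and WT replicate 1 lay in that range while the other 3 WT libraries were above it. The gene passed the looser filter through its WT level, and in that fit the log2 change was -2.02 ± 0.58 (SE, adjusted p = 0.0265 by edgeR). The call was lost with limma-voom (adjusted p = 0.0702) and without any 1 of lf:YAP replicates 2 and 4 and WT replicates 2 and 3 (0.0748 to 0.0962). The phosphatidylserine flippase family genes atp8a1 and atp8a2 had 5 and 23 counts in lf:YAP, against 10 and 38 in WT. The atp10a gene had 34 and 16 counts in lf:YAP and WT, atp10b 14 and 15, and atp8b5a 35 in each group. The genes atp8b2, atp8b3 and atp8b4 had 1, 2 and 2 counts in lf:YAP, against 3, 10 and 8 in WT.

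**Figure D5:**
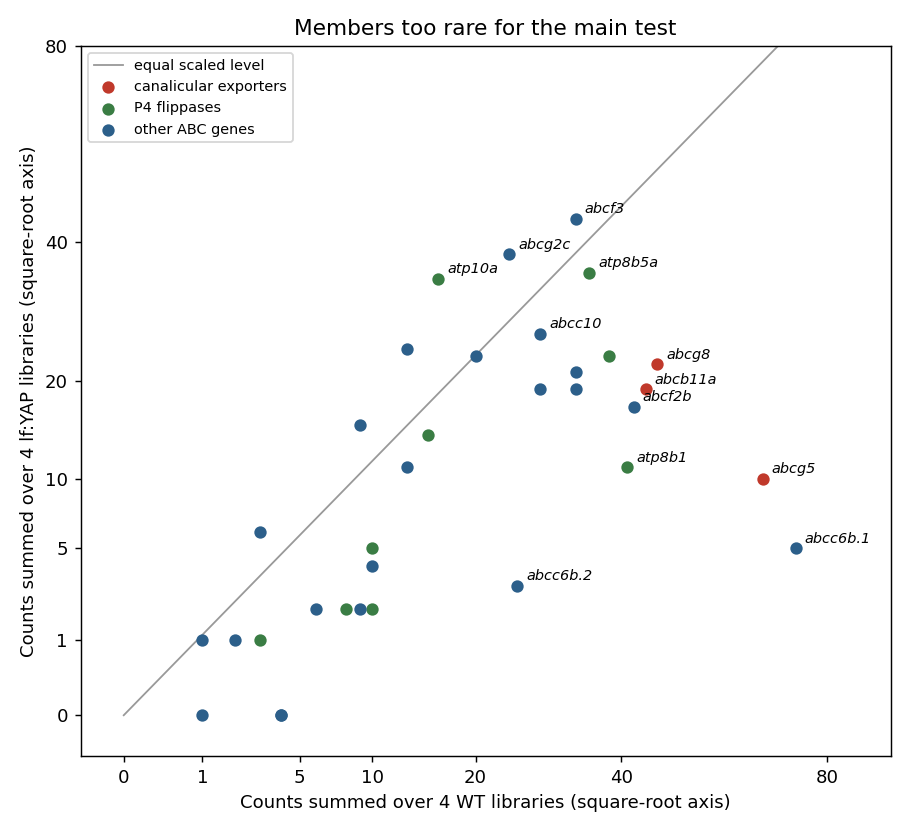
Counts summed over the 4 lf:YAP libraries (y axis) and over the 4 WT libraries (x axis), on square-root axes, for the 34 members too rare for the main test; the line marks equal scaled levels. The 2 points farthest below the line on the right are abcc6b.1, with 5 counts in lf:YAP and 73 in WT, and abcg5, with 10 and 66.

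Of the 34 rare members, 19 could be fitted with the 1 CPM filter, and of these 3 were called lower (abcc6b.1, abcg5 and atp8b1) and 0 higher. At 1 CPM in 4 libraries a gene can pass through its WT level alone, so these counts describe the rare members and do not stand for all of them. Of 4506 genes added by the looser filter, 9.19% were called, 5.42% lower and 3.77% higher. Fits of rare members with 1 library left out kept the gene set of this filter, so they did not retest it. With no filter, 2 of the 62 members were called higher and 8 lower, where 6.15% and 6.3% of all genes were. The fit without a filter treats the spread as shared among most genes, which makes its p-values small. Over these 34 genes together there were 459 counts in lf:YAP and 746 in WT, and no rare member had more than 33 counts in a library.

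Genes that work with these transporters were counted from lists beside the background of 11.1% higher and 10.5% lower. The lists were chosen with earlier results of these data known, so the counts are descriptions and not tests. Of 9 tested genes for flippase subunits and lipid scramblases, the CDC50 subunit gene tmem30aa rose (log2 change 0.60), atg9b fell (-0.54) and 7 did not pass; tmem30ab had 0.69 and tmem30c -0.16. Both calls were lost without any 1 of 5 libraries, and that of atg9b with total counts alone (adjusted p = 0.463 by edgeR). Of 18 tested genes for the canalicular scaffold, junctions and trafficking, 6 rose, 2 fell and 10 did not pass. The membrane-cytoskeleton linker genes ezra (1.104), ezrb (1.08) and msna (1.52) and the junction gene cgna (2.06) rose, and so did tjp1a and rab11a, whose calls were lost without any 1 of 4 and of 6 libraries. The scaffold gene slc9a3r1a (-0.96), also lost with total counts alone (adjusted p = 0.101 by edgeR), and the copper exporter gene atp7b (-1.29) fell. The biliary markers, which include keratins, summed to 3367 to 5426 CPM in lf:YAP and 1684 to 1877 CPM in WT. Of the 8 biliary markers tested, 5 rose and 3 did not pass, among them krt4 (-0.34) and krt5 (-0.31). The part of the biliary markers in the changes of the listed genes was not tested.

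Of 7 tested genes of bile acid and bile alcohol synthesis, hsd3b7 rose (0.67), hsd17b4 (-0.93) and scp2a (-1.31) fell and 4 did not pass, among them the rate-limiting hydroxylase gene cyp7a1 (-0.046). The hsd3b7 call was lost without any 1 of 6 libraries. Of 3 tested genes for carriers on the blood side, the uptake carrier gene slco1d1 fell (-0.99) and the bile salt efflux subunit gene slc51a rose (1.43). Of 18 tested genes for receptors and factors known to act on transporter genes, 2 rose, among them the sterol regulator gene srebf2 (0.89), rxraa (-0.81) and ppargc1a (-1.23) fell, and 14 did not pass, with nr1h4, the bile acid receptor FXR, at 0.70 and the sterol receptor gene nr1h3 at 0.12. The srebf2 call was lost without WT replicate 2 or 4, and that of rxraa with total counts alone (adjusted p = 0.129 by edgeR). Among 15 tested P-type ATPase genes outside the flippases, atp7b, named above, was the 1 called gene. All values in this and the preceding paragraph are log2 changes of lf:YAP over WT.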

How the data were processed

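The members and gene lists were chosen with earlier results of these data known. The submitters' processing notes name the build danRer10 and, with no role or order, limma 3.40.6, featureCounts 1.6.0, HISAT2 2.1.0 and cutadapt 1.16. The sources used here do not give the annotation or strand setting, so reads of a gene and an antisense or overlapping one cannot be separated. The authors deposited whole-number counts per gene and library, not normalized, and CPM values equal to the count over the column total, per the file headers and values. Their log2 fold changes and p-values come from the authors' deposited table.

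Rows without a gene name (6518 of 35117, 0.657% to 2.55% of a library's counts) were left out. No member had more than 1 row and no 2 libraries were identical. Counts were fitted in R 4.3.3 with edgeR 4.0.16 (filterByExpr, TMM, robust quasi-likelihood F-test, group as the only term) over 8369 genes, 2-sided, with Benjamini-Hochberg adjustment; the procedure was tested on simulated data. The SE is the log2 fold change over the square root of F. Rare members used a looser filter, 1 CPM or more in 4 or more libraries. DESeq2 1.42.0, limma-voom (limma 3.58.1), other scalings and filters, a replicate block and left-out libraries were alternatives. Counting intervals (95%, exact binomial) cover counting error only. Named genes were the canalicular exporters, called members, abundant or paired members, and called genes of each list; other names were chosen after their values were seen. Some genes of the rule and lists enter the counts and are not reported here by name. No sequence is printed, as no sequence tables were used here.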

Additional observations from a re-analysis of the deposited data

Results flagged for a closer look

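There were 6 values that stood apart from the other 3 libraries of their group by Dixon's test at the 95% level, of 68 groups of 4 examined; chance flags about 1 in 20 groups. abcg5 was at 2.58 CPM in lf:YAP replicate 3, against 0.250 to 0.515 CPM in the other lf:YAP libraries. abca12 was at 20.2 CPM in WT replicate 3, against 17.2 to 17.4 CPM in the other WT libraries. abca5 was at 12.7 CPM in WT replicate 2, against 9.06 to 9.27 CPM in the other WT libraries. abcc4 was at 12.5 CPM in lf:YAP replicate 3, against 5.81 to 6.25 CPM in the other lf:YAP libraries. abcc5 was at 27.2 CPM in WT replicate 3, against 21.6 to 22.02 CPM in the other WT libraries. The log2 ratio of abcg5 to abcg8 was -0.206 in lf:YAP replicate 3, against -1.58 in each of the other lf:YAP libraries. Those equal values come from abcg5 counts of 1, 2 and 1 and abcg8 counts of 4, 7 and 4. Any different value in replicate 3 would have been flagged, so this flag carries no weight. Of these 6 values, 3 were in lf:YAP replicate 3, the lf:YAP library with the most pancreas transcripts. The abcg5 level and the ratio rest on the same 6 abcg5 counts there, so they are not separate events. Without that library abcg5 had a log2 fold change of -3.75 and abcc4 -0.89 (adjusted p = 0.0603 by edgeR).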

How the results depend on the processing

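The 1 member called higher became 3 with total counts alone, 2 without a filter, 1 to 2 with 1 library left out and 2 without lf:YAP replicate 3 and WT replicate 4 together, a setting chosen after seeing the data, where 18.4%, 6.15%, 8.19% to 13.6% and 13.3% of all genes were called higher. The 5 called lower became 3 with total counts alone, 8 without a filter, and 2 to 7 with 1 library left out, with 2 without WT replicate 3, where 6.18%, 6.3% and 7.01% to 14.6% of all genes were called lower. Members tested were 28 with total counts alone, 62 without a filter, 29 to 33 with 1 library left out and 30 without both libraries. Rare members therefore enter some of these counts. Total counts alone moved the median log2 fold change of all tested genes to 0.32, against 0.013 with TMM. The fit without a filter treats the spread as shared among most genes, abundant ones included, and its p-values are small. For abcb4 its adjusted p was 1.12e-14 by edgeR, against 2.09e-05 to 0.00440 with 1 library left out. For abcb11b, total counts alone gave 1.09, no filter 0.79, both libraries left out 0.83 and 1 left out 0.60 to 0.92; each of the first 3 passed. With total counts alone, abcc2 (0.14), abca3b (0.23), abcb10 (0.26), abcd3a (0.15) and abcf2a (0.072) changed sign, none of them called. With 1 library left out, abca3b ran from -0.13 to 0.012, abca5 from -0.20 to 0.23, abcb10 from -0.35 to 0.25 and abcd2 from -0.096 to 0.35; abcd2 was -0.17 without both libraries and abcb10 0.022 without a filter. The ratio difference of abcg5 to abcg8 ran from -2.16 to -1.44 with 1 library left out, with an unadjusted exact permutation p of 0.0571 without any 1 WT library; that of abca1a to abca1b ran from -0.36 to 0.37. The cause of these changes was not tested. Of 522 alternative values for 31 results, 475 kept their direction and side of the threshold, and many of the 31 were not called to begin with. A call was lost in 26 of the values: 11 for abcc12, 7 for abcg2a, 5 for atp8b1 and 3 for abca1a. The replicate numbers did not pair the libraries (correlations of -0.0515 to 0.0393 between same-numbered deviations), and with the replicate block 1 member was called higher and 4 lower, abcc12 (-0.50, adjusted p = 0.0528 by edgeR) losing its call. Of the 34 rare members, 19 had under 10 counts in every library, which limits what can be seen of them.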

Other observations

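The authors' deposited table called 9 members at an adjusted p under 0.05, 1 of them higher in lf:YAP and 8 lower, which are 1.61% and 12.9% of the 62, where 3.7% and 3.63% of all 22936 named rows with a count in the authors' deposited table were. In the authors' deposited table these include abcg5 (log2 change -2.84), abcc6b.1 (-3.81), abcc6b.2 (-2.66) and abcc13 (-1.71), the last of which had 0 counts in lf:YAP and 4 in WT. Each of these named genes was too rare for the main test. The authors' adjusted p covers all 22936 rows, rare ones included, whereas the main test covered 28 members and 8369 genes. Shares called are therefore not comparable between them. A P4 flippase row written in capitals, ATP11B, fell outside the symbol rule and had 185 counts in lf:YAP and 127 in WT (log2 change 0.32, adjusted p = 0.376 by edgeR). Of the ABC genes under other names, the antigen peptide transporter gene tap1 had a mean of 2.02 CPM in lf:YAP and 0.269 CPM in WT and was too rare for the main test, the chloride channel gene cftr had 0.800 and 1.08 CPM, and tap2t had a log2 change of -0.084 (adjusted p = 0.884 by edgeR). Markers of macrophages and leukocytes summed to 17.2 to 42.0 CPM in lf:YAP and 7.34 to 12.2 CPM in WT.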
